A study of Mus musculus with 4 samples.

Results

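Tbx15 and 8 other T-box genes were followed through RNA immunoprecipitation libraries of 2 kinds, Runx1 and IgG, named for the antibody on the beads. The genes were picked by name: Tbx15 for having almost no counts in the Runx1 libraries of this same comparison, and Tbx18, Tbx1, Tbx2, Tbx3, Tbx4, Tbx5, Tbx6 and Tbx20 as relatives to set beside it. They are 9 of the 55573 gene identifiers in the count table. Because the difference between the antibodies chose Tbx15, its values and those of its relatives are given as a description, with no test.

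RNA immunoprecipitation sequencing (RIP-seq) recovers the RNA that an antibody holds on beads, and IgG, an antibody with no chosen target, measures the background. The 2 Runx1 and the 2 IgG libraries all came from wild-type C57BL/6 mouse embryos at embryonic day 10, from cells of the caudal part sorted for Cd31, the endothelial surface protein that Pecam1 encodes and that some blood cells also carry. No treatment or allele differed between the groups, and input RNA was not analysed here. The labels do not say how many embryos were pooled or whether replicates came from separate sorts, so the spread between replicates may be technical.

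T-box genes encode transcription factors that share a DNA-binding domain, the T-box, and many of them set up mesoderm, limbs, heart and pharynx in the embryo. Tbx15 acts in the mesenchyme of the limbs, the skeleton and the skin. Tbx18, its close relative, acts in somites, in the outer layer of the heart and in the mesenchyme of the ureter. Both are known mainly from mesenchyme, and a count here says only that the RNA was in the recovered material. In these bulk samples fewer cells of a type, less RNA per cell and less recovery on the beads cannot be told apart.

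Depth was lower in the Runx1 libraries, with 1675488 and 1887301 counts over all genes, than in the IgG libraries, with 3843318 and 2482045. Genes with at least 1 count numbered 16929 to 18401 per library. A level is given in CPM, a count divided by the library's gene total and scaled to 1e6, so that 3 counts correspond to 1.79 and 1.59 CPM in the Runx1 libraries and to 0.781 and 1.21 CPM in the IgG libraries. Scaled to the synthetic spike-in RNAs instead, the median gene was lower with the Runx1 antibody (log2 fold change -1.25), so every direction given here is relative to the bulk of the genes. Endothelial markers were present: all 13 had counts, and Pecam1 had 156 and 194 counts in the Runx1 libraries and 384 and 197 in the IgG libraries. RNA of other cells was also present, and all 12 mesenchymal markers had counts.

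Coding sequence shows how far these genes differ where Tbx15 and Tbx18 are most alike, which bears on whether a read of one could be counted for another. The 90 coding bases of Tbx15 within 1 exon that best match Tbx18 without gaps are given here with the best-matching stretches of Tbx18, Tbx3 and Tbx2, all from the GENCODE M21 transcripts (mm10), 5′ to 3′ along the transcript, with capitals at each base that differs from Tbx15.
Tbx15 (chr3:99314744-99314833, plus strand, exon 4): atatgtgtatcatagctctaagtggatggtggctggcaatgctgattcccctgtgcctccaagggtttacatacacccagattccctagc
Tbx18 (chr9:87724384-87724473, minus strand, exon 4): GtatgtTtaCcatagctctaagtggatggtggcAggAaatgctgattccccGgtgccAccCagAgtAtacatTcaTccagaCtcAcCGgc
Tbx3 (chr5:119674122-119674211, plus strand, exon 2): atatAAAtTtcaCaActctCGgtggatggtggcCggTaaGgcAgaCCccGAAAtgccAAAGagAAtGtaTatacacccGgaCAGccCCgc
Tbx2 (chr11:85834716-85834805, plus strand, exon 2): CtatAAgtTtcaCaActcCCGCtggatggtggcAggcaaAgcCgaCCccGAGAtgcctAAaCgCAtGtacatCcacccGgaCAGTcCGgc
Even in this stretch Tbx18 differed from Tbx15 at 16 of the 90 bases (82.2% identity), Tbx3 at 32 and Tbx2 at 33. Read along both transcripts, the longest run of identical bases was 23 bases for Tbx15 and Tbx18, and 26 bases for Tbx15 and Tbx10, the most for any T-box gene. Against the opposite strand longer runs occur in a CA repeat of the 3′ UTR of Tbx15, up to 39 bases in Tbr1 and 39 in Tbx20. Tbx15 had no stretch of at least 200 bases at 95% identity in the transcripts of another gene. Of the 9 genes only Tbx18 had one, in D030062O11Rik, an annotated transcript that overlaps it and had 0 counts in all 4 libraries.

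Tbx15 was almost absent from both Runx1 libraries and well covered in both IgG libraries. It had 1 and 2 counts (0.597 and 1.06 CPM) in the Runx1 libraries, against 114 and 77 counts (29.7 and 31.0 CPM) in the IgG libraries. The groups do not overlap, and once scaled to depth the 2 IgG libraries stood close to each other. At the IgG rate the Runx1 libraries would have held 50.6 and 57.0 counts of Tbx15. The Runx1 libraries held 0.0279 times the IgG amount per count sequenced (exact 95% interval 0.0057 to 0.0827, for counting error only). The fitted log2 fold change was -5.12 ± 0.88 (SE, edgeR, n = 2 and 2).

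**Figure D1:**
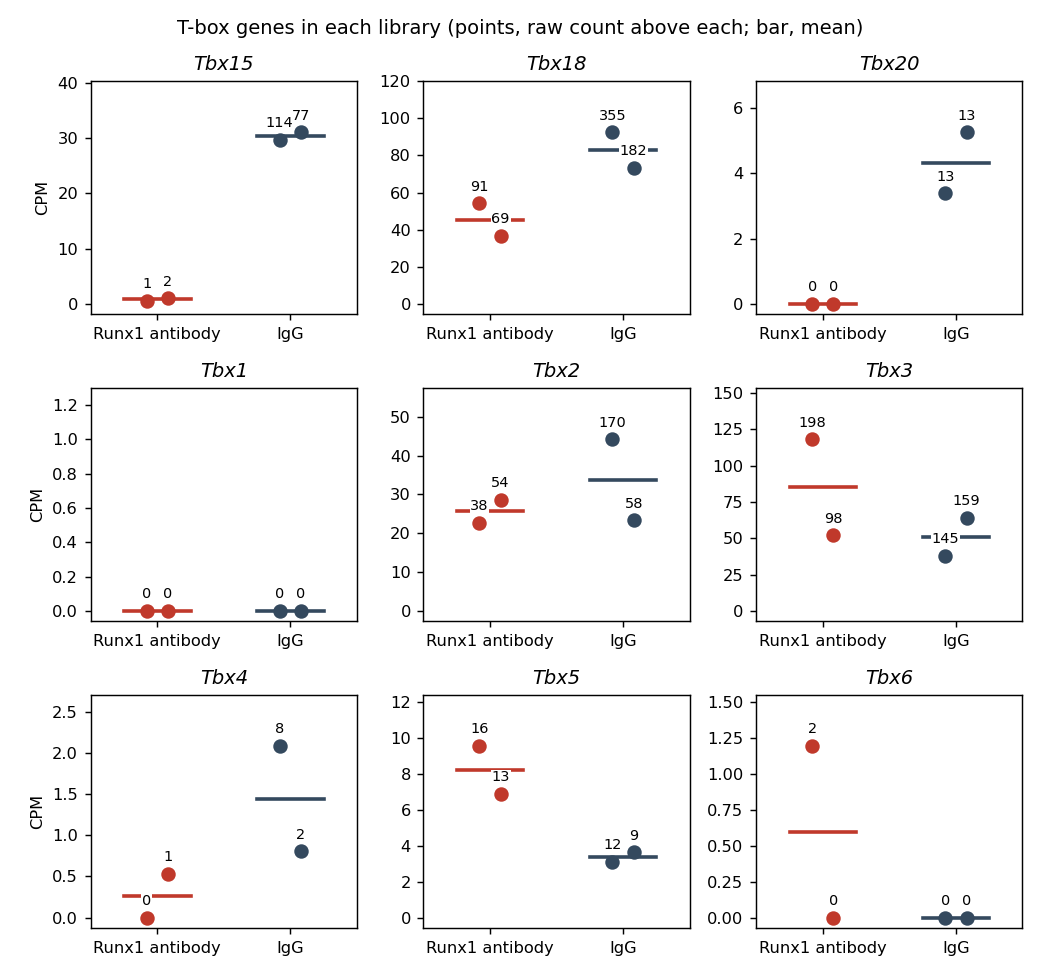
Levels of the 9 T-box genes in CPM (each panel with its own linear axis) in the 2 Runx1-antibody libraries (red, left) and the 2 IgG libraries (grey, right), with the raw count above each point and the mean as a bar. Tbx15 sits at 1 and 2 counts with the Runx1 antibody and at 114 and 77 with IgG, while Tbx3 and Tbx5 have higher mean CPM with the Runx1 antibody, though not when scaled to the spike-in RNAs.

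Tbx15 lies on chromosome 3 of mm10 (99240381 to 99354259, plus strand) and has 3 annotated transcripts, the longest of 3566 bases in 8 exons with 1806 coding bases. None of its exons overlaps an exon of another gene. Inside its gene body lies Gm43120, an antisense transcript, which had 8 and 11 counts in the Runx1 libraries and 13 and 0 in the IgG libraries, and so was not lost with Tbx15. The nearest coding gene before it is Wars2, which encodes the mitochondrial tryptophanyl-tRNA synthetase and ends 1195 bases upstream. Wars2 had 78 and 32 counts in the Runx1 libraries and 74 and 37 in the IgG libraries. Spag17, the nearest coding gene after it, had 0 and 0 counts in the Runx1 libraries and 1 and 0 in the IgG libraries, too few to compare. The pseudogene Gm12449, the nearest annotated gene after it, had 0 counts in all 4 libraries.

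Of the Tbx1 group of T-box genes, to which Tbx15 belongs, Tbx18 was the best covered relative. Tbx18 had 91 and 69 counts (54.3 and 36.6 CPM) in the Runx1 libraries, against 355 and 182 counts (92.4 and 73.3 CPM) in the IgG libraries. Both Runx1 libraries were below both IgG libraries. The Runx1 libraries still held 0.529 times the IgG amount per count sequenced (0.441 to 0.632, for counting error only). Its log2 fold change was -0.90 ± 0.39 (SE, edgeR). Tbx18 lies on chromosome 9 (87702800 to 87731260, minus strand).

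Tbx20, a regulator of heart development on chromosome 9 (24718138 to 24774303), was the other member lost from both Runx1 libraries, at much lower depth. It had 0 counts in both Runx1 libraries, against 13 and 13 counts (3.38 and 5.24 CPM) in the IgG libraries. Its pooled IgG level was 4.88 times a floor of 3 counts over both Runx1 libraries. That ratio leaves out the counting error of the IgG counts. The Runx1 libraries held 0 times the IgG amount per count sequenced (0 to 0.271, for counting error only). This depth shows little: of 2354 genes with an IgG sum within 1.5 times that of Tbx20, 207 (8.79%) also had 0 counts in both Runx1 libraries, a comparison chosen after the values were seen. Tbx1, needed for the pharyngeal arches and the outflow tract of the heart, had 0 counts in all 4 libraries.

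The Tbx2 group is arranged in 2 neighbouring pairs, Tbx2 with Tbx4 on chromosome 11 and Tbx3 with Tbx5 on chromosome 5. Tbx2, a repressor active in limb and heart, had 38 and 54 counts (22.7 and 28.6 CPM) in the Runx1 libraries, against 170 and 58 counts (44.2 and 23.4 CPM) in the IgG libraries. The groups overlapped, with IgG replicate 1 alone above the rest, and the log2 fold change was -0.43 ± 0.57 (SE, edgeR). Without IgG replicate 1 it was 0.10. Tbx4, a hindlimb gene, had 0 and 1 counts in the Runx1 libraries, against 8 and 2 counts in the IgG libraries. That is 0.178 times the IgG amount per count sequenced, with a counting interval of 0.00409 to 1.25, too wide to give a direction.

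Tbx3 and Tbx5 had higher mean CPM with the Runx1 antibody, but not when scaled to the spike-in RNAs (log2 fold change -0.49 for Tbx3 and -0.0015 for Tbx5). Tbx3, a repressor needed for limb and mammary gland, had 198 and 98 counts (118 and 51.9 CPM) in the Runx1 libraries, against 145 and 159 counts (37.7 and 64.1 CPM) in the IgG libraries. The groups overlapped, Runx1 replicate 1 being far above the other 3 libraries. The log2 fold change of Tbx3 was 0.71 ± 0.49 (SE, edgeR), or -0.0098 without Runx1 replicate 1. Exons of Tbx3 overlap the antisense gene Tbx3os1, which had 7 and 7 counts in the Runx1 libraries and 11 and 9 in the IgG libraries, and without a stated strand setting their reads cannot be told apart.

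Tbx5, which acts in the forelimb and the heart, was the only one of the 9 with both Runx1 libraries above both IgG libraries in CPM. It had 16 and 13 counts (9.55 and 6.89 CPM) in the Runx1 libraries, against 12 and 9 counts (3.12 and 3.63 CPM) in the IgG libraries. The Runx1 libraries held 2.45 times the IgG amount per count sequenced (1.35 to 4.52, for counting error only). The log2 fold change was 1.24 ± 1.09 (SE, edgeR), an error that also takes in the spread between replicates. Tbx6, a gene of the paraxial mesoderm, had 2 and 0 counts in the Runx1 libraries and 0 in both IgG libraries, under the floor in both groups.

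Of the 9 genes, 8 had a count in some library, and among these 4 had both Runx1 libraries below both IgG libraries (Tbx15, Tbx18, Tbx4 and Tbx20), 1 had them above (Tbx5) and 3 overlapped or tied. Over all 22242 genes with a count, 16.7% lay below and 18.1% above in the same way. The low-count filter of the edgeR fit kept 5 of the 9 (Tbx15, Tbx18, Tbx2, Tbx3 and Tbx5). Of these 5, Tbx15 was called lower at a false discovery rate of 0.05, where 0.339% of all 12401 genes tested were called lower and 0.306% higher; nothing is read from this count, since the same contrast chose the gene. The call was lost with each library left out in turn, with library totals in place of TMM, with a replicate block and in limma-voom, and DESeq2 gave Tbx15 no adjusted p, while its log2 fold change stayed between -5.59 and -4.82 in these fits. The median log2 fold change of the 5, which include the chosen Tbx15, was -0.43, beside 0.027 for all genes tested. The relatives went both ways, with -0.90 for Tbx18 and -0.43 for Tbx2 but 0.71 for Tbx3 and 1.24 for Tbx5. No direction of the set is therefore read from this median.

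**Figure D2:**
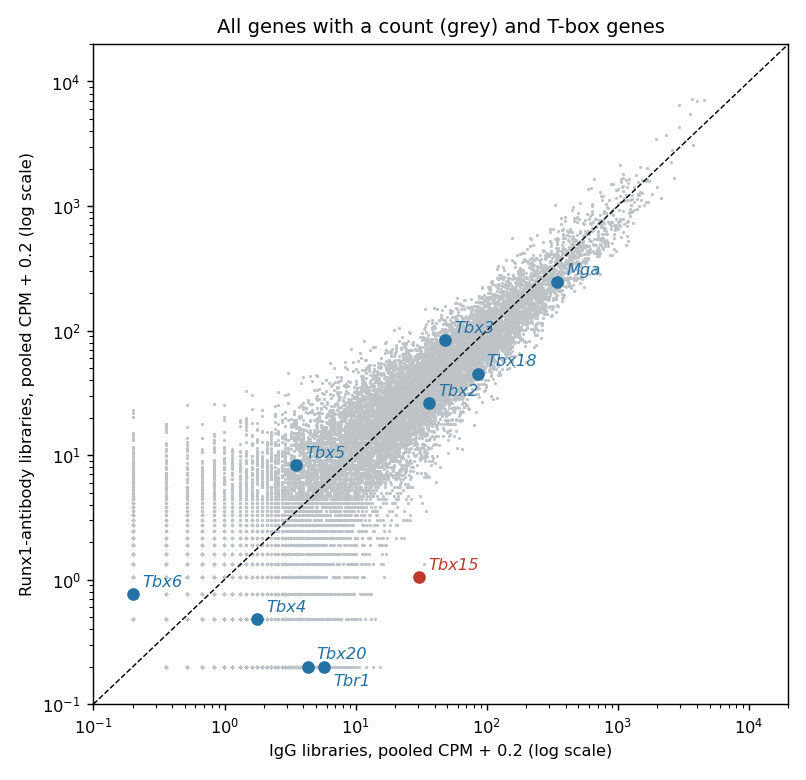
Pooled levels (CPM + 0.2, log axes) in the 2 IgG libraries (horizontal) and the 2 Runx1-antibody libraries (vertical) for all genes with a count (grey) and for the T-box genes with more than 1 count (coloured), the dashed line marking equal levels. Tbx15 (red) stands at 0.842 pooled CPM in the Runx1 libraries and 30.2 in the IgG libraries, apart from Tbx18, Tbx2 and Tbx3, which lie near the line.

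The make-up of the T-box counts is a description too, since the low share of Tbx15, the chosen gene, raises the shares of the others. Tbx15 made up 0.289% and 0.844% of the counts of the 9 genes in the Runx1 libraries, against 14.0% and 15.4% in the IgG libraries. Tbx3 made up 57.2% and 41.4% in the Runx1 libraries, against 17.7% and 31.8% in the IgG libraries. The 57.2% is that of Runx1 replicate 1, without which the log2 fold change of Tbx3 was -0.0098. Tbx18 made up 26.3% and 29.1% in the Runx1 libraries, against 43.5% and 36.4% in the IgG libraries. Summed over libraries the 8 relatives had 580 counts with the Runx1 antibody and 1126 with IgG, while Tbx15 had 3 with the Runx1 antibody and 191 with IgG. These sums are not scaled to depth, which was 3.56e+06 gene counts with the Runx1 antibody and 6.33e+06 with IgG.

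**Figure D3:**
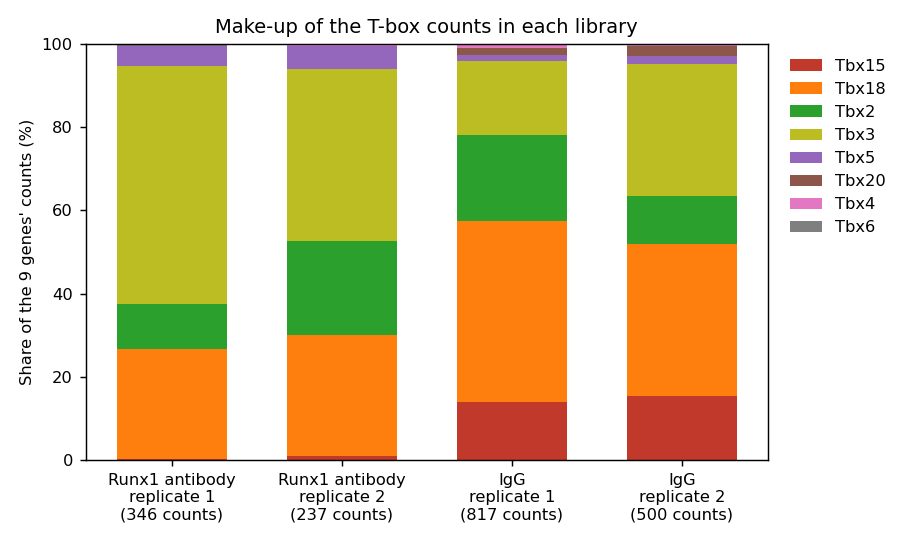
Share (%) of each gene in the summed counts of the 9 T-box genes, for each library, with the Runx1-antibody libraries on the left and the number of counts under each bar. Tbx15 (red, at the bottom) takes under 1% of both Runx1 bars and 14.0% and 15.4% of the IgG bars.

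Levels can be compared between genes only per length, here as CPM per kilobase of the longest transcript (RPKM). In the IgG libraries the order among the 9 was Tbx18 (17.7 ± 2.88 RPKM, SD, n = 2), Tbx3 (10.2 ± 3.74), Tbx2 (9.32 ± 4.07), Tbx15 (8.51 ± 0.27), Tbx5 (0.856 ± 0.090), Tbx20 (0.474 ± 0.14) and Tbx4 (0.458 ± 0.29). Tbx3, Tbx2 and Tbx15 were within their spread of one another, as were Tbx20 and Tbx4. In the Runx1 libraries the order was Tbx3 (17.1 ± 9.40 RPKM, SD, n = 2), Tbx18 (9.71 ± 2.68), Tbx2 (7.07 ± 1.16), Tbx5 (2.08 ± 0.48), Tbx6 (0.346 ± 0.49), Tbx15 (0.232 ± 0.092) and Tbx4 (0.084 ± 0.12). Tbx3, Tbx18 and Tbx2 overlapped there, and Tbx6, Tbx15 and Tbx4 rest on 3 counts or fewer each. Tbx15 thus stood near Tbx2 and Tbx3 in the IgG libraries and below Tbx5 in the Runx1 libraries.

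In length and composition Tbx15 lay inside the range of its relatives. Its longest transcript has 3566 bases, where those of the others run from 1727 (Tbx6) to 9091 (Tbx20), and its GC content is 48.2%, where theirs runs from 42.3% (Tbx20) to 63.2% (Tbx2). Its 3′ UTR of 1636 bases lies between those of Tbx3 (1469) and Tbx5 (1732), and that of Tbx18 has 2421 bases. The 3 of the 9 with the lowest GC content, Tbx15, Tbx18 (46.8%) and Tbx20, all had both Runx1 libraries below both IgG libraries. So did Tbx4, at 53.95%, but its 11 counts are too few to give a direction. Tbx5, whose Runx1 libraries lay above both IgG libraries, has a GC content of 51.3%. The part of GC content in these values was not tested.

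Genes of like IgG depth were counted over the whole table; as Tbx15 was chosen for its few Runx1 counts, its place among them is a description. There were 2547 genes with an IgG sum within 1.5 times that of Tbx15, and their median was 111 counts in the Runx1 libraries together. Tbx15, with 3, was the lowest of them. The next had 4 counts, 9 genes in all had at most 10, and 39 had at most 20. The number of genes with at most 3 counts, the sum of Tbx15 itself, was 1 with all libraries. It was 17 without Runx1 replicate 1 and 20 without Runx1 replicate 2. There the cut of 3 counts fell on 1 library, so more genes pass it for that reason alone. It was 9 without IgG replicate 1 and 3 without IgG replicate 2.

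With the antibodies exchanged such genes were few as well. Of 2795 genes with a Runx1 sum within 1.5 times the 107.6 counts that Tbx15 would have at the IgG rate, 3 had at most 3 counts in the IgG libraries (0.107%). Single libraries of 1 antibody were also set against each other, with at most 3 counts then taken in 1 library and not over 2. Of 2753 genes with a count in Runx1 replicate 2 near that of Tbx15 at the IgG rate, 67 (2.43%) had at most 3 counts in Runx1 replicate 1, and with the replicates exchanged 55 of 2715 (2.03%). Between the IgG replicates 10 of 2577 (0.388%) were as low in replicate 1 and 16 of 2566 (0.624%) in replicate 2.

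**Figure D4:**
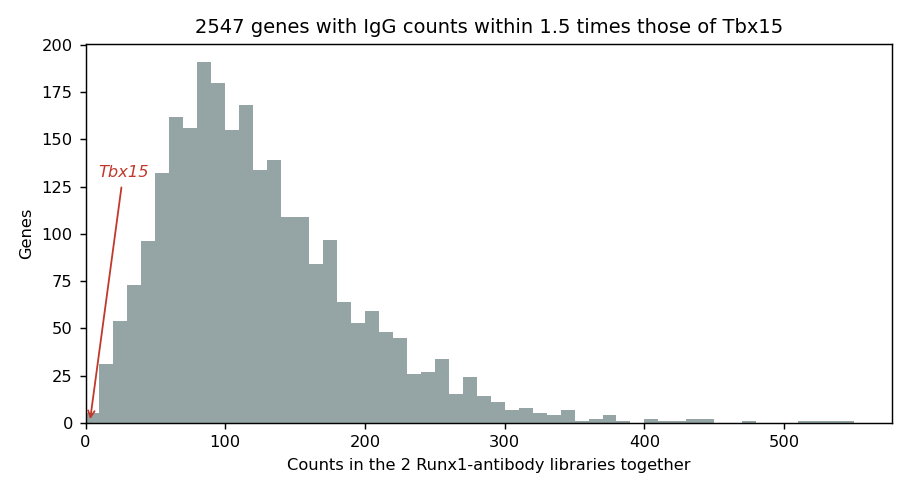
Number of genes (vertical) by their counts in the 2 Runx1-antibody libraries together (horizontal, bins of 10 counts) among the 2547 genes whose IgG counts were within 1.5 times those of Tbx15. The median is 111 counts, and the arrow marks Tbx15 at 3 counts, the lowest of all.

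By fold change alone Tbx15 did not stand at the end of the table. There were 16 other tested genes with a lower fitted log2 fold change, of which 14 had 0 counts in both Runx1 libraries, and their IgG sums ran from 34 to 95 counts, all below the 191 of Tbx15. Fitted values of genes at 0 depend on the prior count and give no bound.

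The genes most like Tbx15 were taken as those with the smallest share of counts in the Runx1 libraries among 2246 named coding or long non-coding genes of like IgG count, over the 4 libraries. Adamts16, a secreted metalloprotease gene on chromosome 13, had 3 and 1 counts in the Runx1 libraries and 156 and 54 in the IgG libraries. Its Runx1 share was 1.87%, beside 1.55% for Tbx15. The zinc finger gene Zfp280c had 4 and 3 counts in the Runx1 libraries and 88 and 58 in the IgG libraries, a share of 4.58%. The collagen gene Col5a3 (4.83%), the phosphatidylcholine synthesis gene Pcyt1a (5.22%) and the neuronal splicing factor gene Nova1 (6.06%) followed. None of the 5 lies on chromosome 3, and none of them is a T-box gene.

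The other T-box genes were mostly undetected. Of 8 (T, Eomes, Tbr1, Tbx10, Tbx19, Tbx21, Tbx22 and Mga), 5 had 0 counts in all 4 libraries, and T, the Brachyury gene of the early mesoderm, had 1 count, in an IgG library. Mga, whose protein carries a T-box and pairs with MAX, had 414 and 460 counts (247 and 244 CPM) in the Runx1 libraries, against 1364 and 809 counts (355 and 326 CPM) in the IgG libraries. The Runx1 libraries were lower than both IgG libraries, but the log2 fold change of -0.50 ± 0.18 (SE) did not pass (edgeR adjusted p = 0.262). Tbr1, a gene of cortical neurons, had 0 counts in both Runx1 libraries, against 32 and 3 counts in the IgG libraries. Its IgG counts came mostly from replicate 1 and were at the floor in replicate 2, so no fold is given, and 132 of 2410 genes of like IgG sum (5.48%) were also at 0 in both Runx1 libraries.

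Partners of the T-box proteins, and genes that act with them or under them in limb, heart, pharynx and somites, were counted by list. Over 5 lists of 64 genes in all, the other T-box genes included, 41 were tested, and none was called higher or lower by edgeR or limma-voom (3 higher and 4 lower at an unadjusted edgeR p under 0.05, which 6.88% of all genes tested passed higher and 7.36% lower). DESeq2 gave 26 of them an adjusted p and called 1, Wt1, lower. Over the whole table limma-voom called 1.79% of genes, and DESeq2 6.82% of those it gave an adjusted p. Of 14 partners and corepressors 13 were tested, 10 were above 0, and their median log2 fold change was 0.31. The Groucho corepressor Tle4, of the family that Tbx15 and Tbx18 bind, had 431 and 383 counts in the Runx1 libraries and 1217 and 920 in the IgG libraries (log2 fold change -0.61 ± 0.20, SE, edgeR adjusted p = 0.227). Tle6, another member of that family, had 38 and 18 counts in the Runx1 libraries and 8 and 2 in the IgG libraries (3.36 ± 1.1, edgeR adjusted p = 0.220).

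Of 19 genes that T-box factors regulate or act with, 11 were tested, 7 were above 0 and the median was 0.12. Wt1, a gene of the mesothelium and the outer layer of the heart, had 1236 and 1274 counts in the Runx1 libraries and 3554 and 2337 in the IgG libraries (-0.43 ± 0.12, SE, edgeR adjusted p = 0.178). The gap junction gene Gja1 had 102 and 95 counts in the Runx1 libraries and 276 and 243 in the IgG libraries (-0.64 ± 0.37, edgeR adjusted p = 0.500). In both genes the Runx1 libraries were the lower ones, without passing in edgeR. The Tbx6 targets Mesp2, Msgn1 and Ripply2 had 0 counts in all 4 libraries.

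Genes of limb bud mesenchyme, where Tbx15 is known to act, had counts with both antibodies, at very unequal levels. Meis2 made up most of their summed CPM. It had 600 of 883 and 500 of 780 CPM in the Runx1 libraries, and 449 of 732 and 482 of 848 in the IgG libraries. Lhx2, not tested, had 1 and 0 counts in the Runx1 libraries and 24 and 2 in the IgG libraries. All 15 genes of this list had counts, 14 were tested, 8 were above 0, and the median log2 fold change was 0.28. Prrx1, a marker of limb mesenchyme, had 168 and 213 counts in the Runx1 libraries and 601 and 535 in the IgG libraries (-0.83 ± 0.27, SE, edgeR adjusted p = 0.223). Msx1 had 87 and 156 counts in the Runx1 libraries and 141 and 92 in the IgG libraries (0.84 ± 0.43, edgeR adjusted p = 0.431). These genes of the limb bud therefore did not share one direction. Of 16 somite genes 7 were tested, 6 were above 0 and the median was 0.12. Pax3, of the dermomyotome, had 311 and 379 counts in the Runx1 libraries and 622 and 421 in the IgG libraries (0.19 ± 0.22, edgeR adjusted p = 0.775), and Foxc2 20 and 51 in the Runx1 libraries and 67 and 81 in the IgG libraries (-0.38 ± 0.69, edgeR adjusted p = 0.875).

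**Figure D5:**
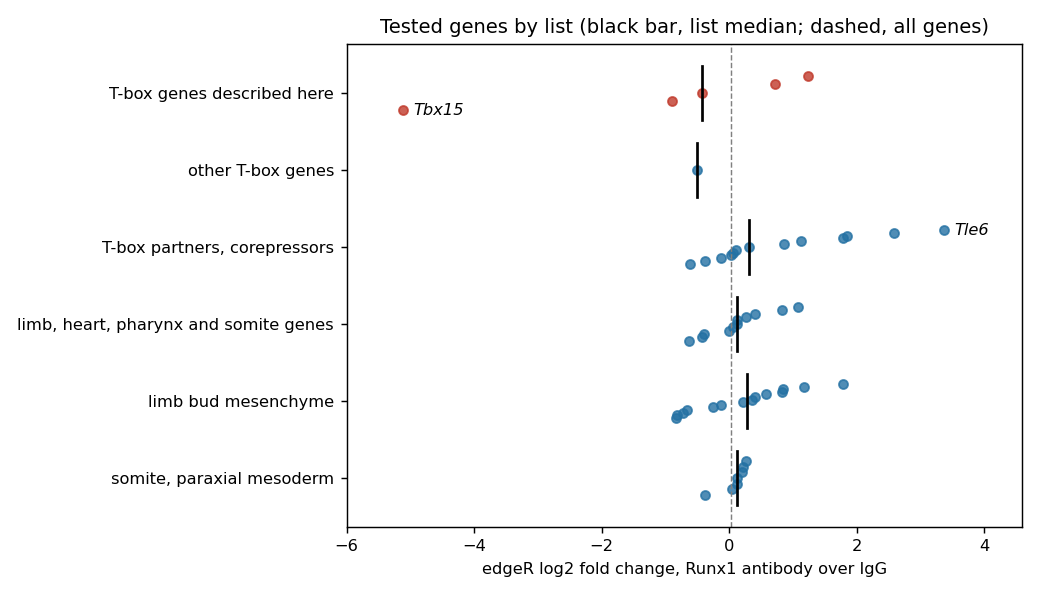
edgeR log2 fold change (horizontal, Runx1 antibody over IgG) of each tested gene in 6 lists, with the list median as a black bar and the median of all genes (0.027) dashed. Tbx15 stands at -5.12, and every other gene of these lists lies between -0.90 (Tbx18) and 3.36 (Tle6).

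Markers of the cell types that could carry T-box RNA stayed detectable with both antibodies. The 12 mesenchymal markers summed to 1465 and 1549 CPM in the Runx1 libraries and to 1355 and 1250 CPM in the IgG libraries, and none was at 0 everywhere. Of the 11 tested, 8 were above 0, and Col3a1 (0.50 ± 0.16, SE, edgeR adjusted p = 0.212) and Acta2 (1.59 ± 0.50, edgeR adjusted p = 0.205) came nearest to passing. The 13 endothelial markers summed to 1564 and 1332 CPM in the Runx1 libraries and 1631 and 1532 CPM in the IgG libraries. The 8 cardiac markers summed to 165 and 210 CPM in the Runx1 libraries and 125 and 77.8 CPM in the IgG libraries, with Nkx2-5 and Nppa at 0 in all 4. Blood markers summed to 819 and 939 CPM in the Runx1 libraries and 615 and 569 CPM in the IgG libraries. The globin genes Hbb-y, Hbb-bh1, Hba-a1 and Hba-x made up most of each sum. Hbb-y alone had 292 and 307 CPM in the Runx1 libraries and 188 and 166 CPM in the IgG libraries. Of the 9 blood markers tested 5 were above 0, these globin genes and the Runx1 gene itself. Ptprc, Kit, Itga2b and Myb were below 0. Neural markers summed to 753 and 591 CPM in the Runx1 libraries and 589 and 554 CPM in the IgG libraries, and epithelial markers to 181 and 167 CPM in the Runx1 libraries and 167 and 136 CPM in the IgG libraries. No marker of these 6 lists was called by edgeR or limma-voom, 10 of the 50 tested were higher and 3 lower at an unadjusted edgeR p under 0.05 (beside 6.88% and 7.36% of all genes), and DESeq2 called 2 blood markers higher.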

How the data were processed

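RNA recovered with a Runx1 antibody or with IgG was sequenced in 2 libraries each. Per the labels' protocols, it was amplified by a reverse transcription method for very small inputs, with no molecular identifiers named, so intervals and floors cover counting error only. The authors deposited raw counts per gene with no normalization. The submitters' processing notes name STAR 2.7.3a, Salmon 1.1.0, Trimmomatic 0.36 and mm10; for the annotation, the strand setting and any rounding of estimates, the value is not given in the sources used here.

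Identifiers were named from GENCODE M21 (mm10), which held 55480 of 55573; the 92 spike-in rows (ERCC, synthetic RNAs) entered neither library sizes nor tests. The 12401 genes kept by filterByExpr (minimum count 10, minimum total 15) were fitted by quasi-likelihood in edgeR 4.0.16 under R 4.3.3 (TMM, two-sided, no block, Benjamini-Hochberg at 0.05), and the SE is the one implied by the test statistic. Alternatives were other scalings and filters, a replicate block, DESeq2 1.42.0, limma-voom (limma 3.58.1) and each library left out. Similar stretches were sought with blastn 2.17.0. Intervals are exact conditional binomial.

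The members, lists and tests were chosen with earlier results of these data known. Named genes were the T-box genes, the 5 genes most like Tbx15 and the neighbours of Tbx15. From the 5 gene lists and the mesenchymal markers, the called genes or those with the 2 smallest p were named. The other marker lists were given as sums, and a few further list members were named for their counts or fold changes.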

Additional observations from a re-analysis of the deposited data

How the results depend on the processing

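The log2 fold change of Tbx15 ran from -5.59 to -4.82 with each library left out. As Tbx15 was chosen for few counts in both Runx1 libraries, its direction could not turn, and the range is a description. The ranges were -1.22 to -0.64 for Tbx18, -0.81 to 0.10 for Tbx2, -0.0098 to 1.19 for Tbx3 and 0.98 to 1.46 for Tbx5. Scaling to the spike-ins moved the median gene to -1.25, Tbx15 to -6.35, Tbx18 to -2.19, Tbx2 to -1.77, Tbx3 to -0.49 and Tbx5 to -0.0015; relative to that median gene they stood at -5.10, -0.94, -0.52, 0.76 and 1.25. A filter of 10 counts in each library removed Tbx15 and Tbx5, so they have no value there. The number of genes like Tbx15 in IgG and near absent with the Runx1 antibody was 2 with a window of 2 times. With at most 6 counts it was also 2. It was 3 to 20 with each library left out, the cut staying at 3 counts also where 1 Runx1 library remained. After thinning it was 1, and among coding genes 1.

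Over the whole table the calls, 38 higher and 42 lower, became 19 and 3914 with spike-in scaling, 224 and 325 with no filter, 125 and 159 with 10 counts in each library, 230 and 304 with DESeq2, and 102 and 120 with limma-voom. With each library left out and the same genes tested they ran from 8 to 52 and from 2 to 82. With a replicate block in edgeR they were 2 and 0 (729 and 837 at an unadjusted p under 0.05). The labels do not say whether libraries of the same number belong together. The correlation of their deviations, 0.0056, cannot decide it, as counting error enters it too. Of the 41 tested members of the 5 gene lists 10 were called lower with spike-in scaling, beside 3914 of 12401 genes over the whole table. DESeq2 gave 26 members an adjusted p and called 1 lower, beside 304 of 7833 genes. The causes were not tested. Depth limits Tbx4, Tbx6 and Tbx20, with at most 26 counts each.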
